A study of Mus musculus with 8 samples.

Results

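The 9 genes described here encode surface receptors and antigens by which early B cells and their progenitors are staged: Il7r, Kit, Flt3, Cd22, Cd72, Ms4a1, Cd24a, Cd93 and Cd34. They were taken by gene name from the non-control probes of the arrays, with older names resolved through RefSeq identifiers. All 9 genes were on the array, by 13 of its 55681 probes and among its 36315 genes. Of these, 6 passed the intensity filter and entered the tests, which covered 18792 genes, while Kit, Ms4a1 and Cd34 did not pass. None of the members' spots carried an outlier call on any of the 8 arrays.

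The study asked which genes respond to miR-125b in mouse pre-B leukaemia cells. The 4 groups were 18-81 cells with a synthetic miR-125b duplex, 18-81 cells with the control duplex miR-Neg, 70Z/3 cells with miR-125b and 70Z/3 cells with miR-Neg, with 2 arrays in each from 2 independent experiments. Every culture received a duplex at 10 nM with a lipid reagent and a medium change at 8 h, and RNA was taken at 48 h, so there was no untransfected group. Both are labelled pre-B lymphoblast leukaemia lines, and 18-81 is known to have arisen through Abelson virus transformation. Each kind of cell was represented by 1 line, so a difference between them is between 2 lines and not between stages of development. The small number of arrays limits the precision of every value.

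In mouse bone marrow, multipotent progenitors carry the cytokine receptors KIT and FLT3, lymphoid progenitors and pro-B cells add the interleukin-7 receptor, and pre-B cells stop responding to interleukin-7 as they mature. CD24 and CD93 mark the immature stages, whereas CD22, CD72 and CD20, the product of Ms4a1, accumulate as cells approach the mature B cell. CD22 and CD72 restrain antigen receptor signalling through tyrosine motifs that recruit phosphatases. A microRNA such as miR-125b lowers its targets by pairing of its seed, bases 2 to 8, mostly with sites in the 3′ untranslated region.

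The mature sequence of the transfected microRNA is shown because its seed defines which transcripts it could pair with. It is written from RefSeq with the seed in capitals, and the 2 mouse genes that encode it lie at chr16:77646279-77646300 and chr9:41581940-41581961 on the plus strand of GRCm38.p6.
mmu-miR-125b-5p: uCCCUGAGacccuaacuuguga
The 7 bases complementary to this seed, CTCAGGG, occurred in 0 of the 13 members' probes and in 245 of all 55681 probes (0.44%). A probe covers only 60 bases of a transcript, so this describes the probes, and the full 3′ untranslated regions were not searched here.

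The arrays were of like quality apart from 1. The 75th percentile of intensity was 337.7 on replicate 2 of 70Z/3 with miR-Neg, the dimmest array, and 504.0 to 725.1 on the other 7, and between 38.0 and 45.1% of probes were well above background. The labelled cell type was checked against 10 B-cell precursor genes: 8 of them, among them Cd79a, Vpreb1 and Igll1, were above background on all arrays of both lines, and the recombinase genes Rag1 and Rag2 were above background on 0 arrays. The summed normalized intensity of the 8 precursor genes was 185710 to 212429 in 18-81 arrays and 373381 to 794617 in 70Z/3 arrays. Of 6 T-cell genes, Cd3d, Cd3e and Cd4 were above background on all arrays of both lines and Cd3g on those of 18-81 alone, while Cd8a and Thy1 were on 0, and the summed intensity was 3251 to 4846 in 18-81 and 2819 to 4562 in 70Z/3. Of 6 myeloid genes, Csf1r, Itgam and Elane were above background on all arrays, Lyz2 and Mpo on the 2 arrays of 70Z/3 with miR-125b alone and Cd14 on 0, with sums of 4082 to 7701 in 18-81 and 5328 to 8283 in 70Z/3. Of the erythroid genes, Klf1 was above background on all arrays and Hba-a1 on 0, and all 4 mast cell genes were above background on 0 arrays. The part of these differences in the results below was not tested. In whole-culture RNA, fewer cells that express a gene and less RNA per cell cannot be told apart.

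Between the lines, 5 of the 6 measured receptors differed, most of all Cd72 and Cd93, which were lower in 18-81. Averaged over both duplexes, 4 genes were lower in 18-81 (Cd72, Cd93, Il7r and Cd22), 1 was higher (Cd24a) and Flt3 was not called. Across all 18792 genes, 31.7% were called between the lines at an adjusted p under 0.05 in limma, 16.2% lower and 15.6% higher. The arrays of the lines did not overlap for 5 of the 6 receptors, against 36.7% of all genes. Intensities below are normalized to the 75th percentile of each array and given on a linear scale in arbitrary units, which serve to compare arrays for 1 probe and not 1 probe with another.

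**Figure D1:**
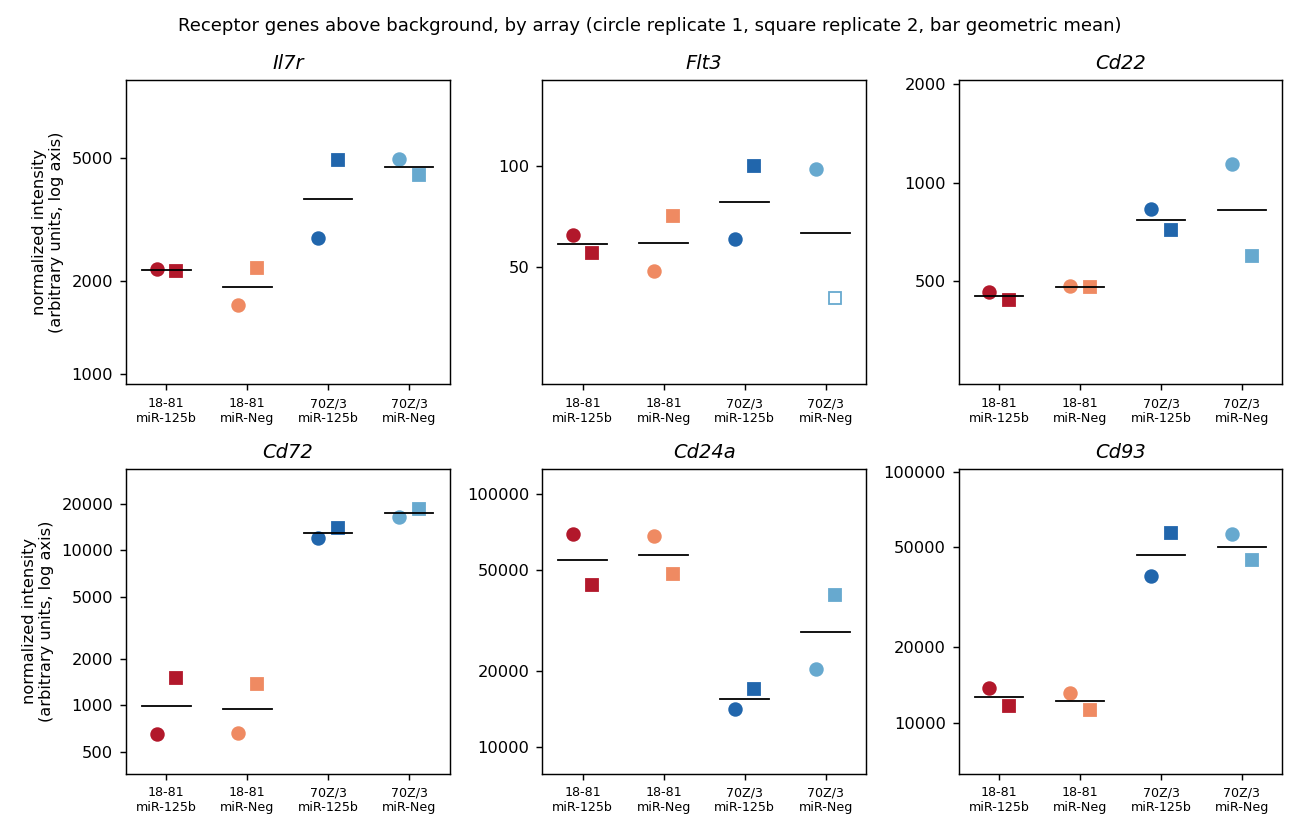
Normalized intensity (arbitrary units, log axis) of the 6 receptor genes above background, by group, with a circle for replicate 1, a square for replicate 2, a bar for the geometric mean of the group and an open symbol for a value not above background. The 4 arrays of 18-81 lie below the 4 of 70Z/3 for Cd72, Cd93, Il7r and Cd22 and above them for Cd24a, while the lines overlap for Flt3.

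Il7r encodes the alpha chain of the interleukin-7 receptor, which also serves, with CRLF2, as the receptor for thymic stromal lymphopoietin. Its probe (A_51_P196695, chr15:9435976-9436035 on the minus strand, mm9) was above background on all 8 arrays. Normalized intensity was 2191 and 2156 in 18-81 cells with miR-125b, 1668 and 2204 in 18-81 cells with miR-Neg, 2747 and 4908 in 70Z/3 cells with miR-125b and 4957 and 4389.9 in 70Z/3 cells with miR-Neg. Every 18-81 array was below every 70Z/3 array, and the nearest approach came from replicate 1 of 70Z/3 with miR-125b. Il7r was 2.03-fold lower in 18-81 (log2 difference −1.02 ± 0.24, SE, 95% interval −1.58 to −0.46, adjusted p = 0.0139, limma, 4 arrays against 4). On the miR-Neg arrays alone the log2 difference was −1.28 (adjusted p = 0.0323), and on the miR-125b arrays alone −0.76 (adjusted p = 0.177), which did not pass. The miR-Neg call was lost without a filter on intensity, with array weights and without any 1 of the 4 miR-Neg arrays (adjusted p = 0.0718 to 0.169, limma). The call over both duplexes was lost without replicate 1 of 18-81 with miR-Neg (−0.92, adjusted p = 0.0514, limma) and without replicate 2 of 70Z/3 with miR-125b (−0.81, adjusted p = 0.0564, limma).

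Most of the other genes listed for the interleukin-7 receptor pathway differed between the lines, mainly towards higher levels in 18-81. Of 15 listed genes, 13 were tested, with a median log2 difference of 0.96 against 0.02 over all genes. In 18-81, 8 were higher and 2 lower, against 15.6% and 16.2% of all genes. This list, like those below, was chosen with earlier results of these data known, so such counts describe the listed genes only. Among the feedback inhibitors of JAK and STAT signalling, which STAT5 is known to induce, was Cish. Its normalized intensities were 38362, 64219, 43537 and 59133 in 18-81 arrays. It was not above background on any 70Z/3 array, so its level was at least 2004-fold higher in 18-81. Such a bound sets the mean of the brighter line against the lowest signal above background, or the probe's own signal where that was higher, on each array of the dimmer line. Socs3 was likewise at least 31.9-fold higher in 18-81. Neither gene was above background on any 70Z/3 array, so their levels there have only an upper limit. Both entered the tests through 18-81 alone and are among the 8 higher genes, and no p-value is given for them.

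Socs1 ranged from 16639 to 31045 in 18-81 arrays and from 157 to 244 in 70Z/3 arrays, a log2 difference of 6.83 ± 0.28 (SE, adjusted p = 5.86e-07, limma). Socs2 ranged from 23966 to 25118 in 18-81 and from 1368 to 1941 in 70Z/3 (3.95 ± 0.20, SE, adjusted p = 1.92e-06, limma). The lower genes were Crlf2, which pairs with IL7R in the receptor for thymic stromal lymphopoietin, and the kinase gene Jak1. Crlf2 gave 110, 23.0, 92.0 and 88.8 in 18-81 arrays, the second of these not above background, and 13545 to 21347 in 70Z/3 arrays (adjusted p = 3.25e-06, limma). With that 1 value raised to the lowest signal measured on its array, the log2 difference was −7.90, a bound on its size. Jak1 differed by −1.19 ± 0.21 (SE, adjusted p = 0.00284, limma). The common gamma chain gene Il2rg (−0.13) and the transcription factor genes Stat5a (−0.13) and Stat5b (0.27) did not pass the test.

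**Figure D2:**
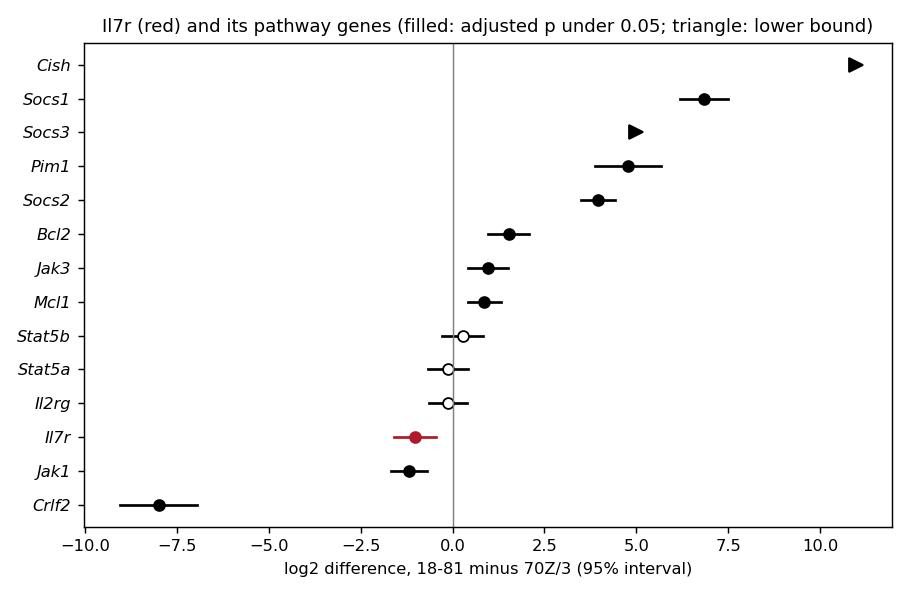
Log2 difference between the lines (18-81 minus 70Z/3) for Il7r, in red, and the 13 tested genes of its pathway, over 4 arrays against 4, with 95% intervals from limma. Filled symbols have an adjusted p under 0.05, and triangles are lower bounds for Cish and Socs3, which were not above background in 70Z/3. The Crlf2 point is the fitted value and includes 1 value of 18-81 that was not above background.

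Kit and Flt3 encode receptor tyrosine kinases of stem cells and early progenitors, for stem cell factor and FLT3 ligand. The Kit probe (A_66_P128434, chr5:76052394-76052453 on the plus strand, mm9, in 2 spots per array) was above background on 0 of 8 arrays. Its intensity was 5.00 and 6.71 in 18-81 with miR-125b, 6.19 and 6.89 in 18-81 with miR-Neg, 5.12 and 10.1 in 70Z/3 with miR-125b and 7.20 and 11.5 in 70Z/3 with miR-Neg. The lowest signal above background was 15.0 to 51.2, depending on the array, so each of these values lay under the measurable range and no fold is given.

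Flt3 was measured close to that limit. Its probe near the 3′ end of the transcript (A_66_P116412, chr5:148142576-148142635, minus strand, mm9) gave 62.4 and 55.4 in 18-81 with miR-125b, 48.9 and 71.3 in 18-81 with miR-Neg, 60.9 and 100.1 in 70Z/3 with miR-125b, and 98.2 and 40.5 in 70Z/3 with miR-Neg, the last of which was not above background. The lines overlapped, and the highest and the lowest value both came from 70Z/3. The log2 difference was −0.25 ± 0.33 (SE, 95% interval −1.02 to 0.51, adjusted p = 0.617, limma), an interval that leaves room for a difference of 1 in log2. A second Flt3 probe (A_55_P2055242, chr5:148178496-148178555, minus strand, mm9) was above background on 0 arrays, at 5.23 to 11.96.

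Of 15 genes that act with KIT and FLT3, 12 were tested (median log2 difference 0.15, against 0.02 over all genes). In 18-81, 1 was higher and 2 were lower, against 15.6% and 16.2% of all genes. The higher one was Ptpn6, which encodes the phosphatase SHP-1 (1.25 ± 0.20, SE, adjusted p = 0.00193, limma). The lower ones were Sh2b3, which encodes the adaptor LNK (−1.01 ± 0.21, SE, adjusted p = 0.00695, limma), and Pik3r1, a regulatory subunit gene of phosphoinositide 3-kinase (−0.94 ± 0.21, SE, adjusted p = 0.00927, limma).

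Cd34 encodes a sialomucin of stem and progenitor cells. One probe (A_51_P204740, chr1:196787392-196787451, plus strand, mm9) was above background on 0 arrays, at 4.81 to 6.91 in 18-81 and 5.04 to 14.4 in 70Z/3. The other (A_55_P2009225, chr1:196785280-196785339, plus strand, mm9) gave 39.5 and 32.1 in 18-81 with miR-125b, 15.9 and 39.1 in 18-81 with miR-Neg, 11.9 and 20.7 in 70Z/3 with miR-125b, and 17.2 and 13.4 in 70Z/3 with miR-Neg. Only the first of these values was above background, so 1 of 4 arrays of 18-81 and 0 of 4 of 70Z/3 measured it. Cd34 did not pass the filter, and no fold is given for it.

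Other stem and progenitor genes were mostly unmeasured as well. Of 12 listed, 8 were above background on 0 arrays of either line, among them Gata2, Hlf, Mecom, Procr, Meis1 and Hoxa9, and 4 were tested. Tal1, which encodes a transcription factor of blood stem cells, ranged from 1189 to 1654 in 18-81 arrays. It was not above background on any 70Z/3 array, so its level was at least 55.1-fold higher in 18-81. Tal1 entered the tests through 18-81 alone, so no p-value is given for it. Lmo2, which encodes a partner of TAL1, was at most 138 in 18-81 and ranged from 15186 to 28624 in 70Z/3 (−7.45 ± 0.23, SE, adjusted p = 1.53e-07, limma). Slamf1, a receptor gene of stem cells and lymphocytes, differed by −1.83 ± 0.20 (SE, adjusted p = 0.000178, limma). These genes of the progenitor list did not share a direction.

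**Figure D3:**
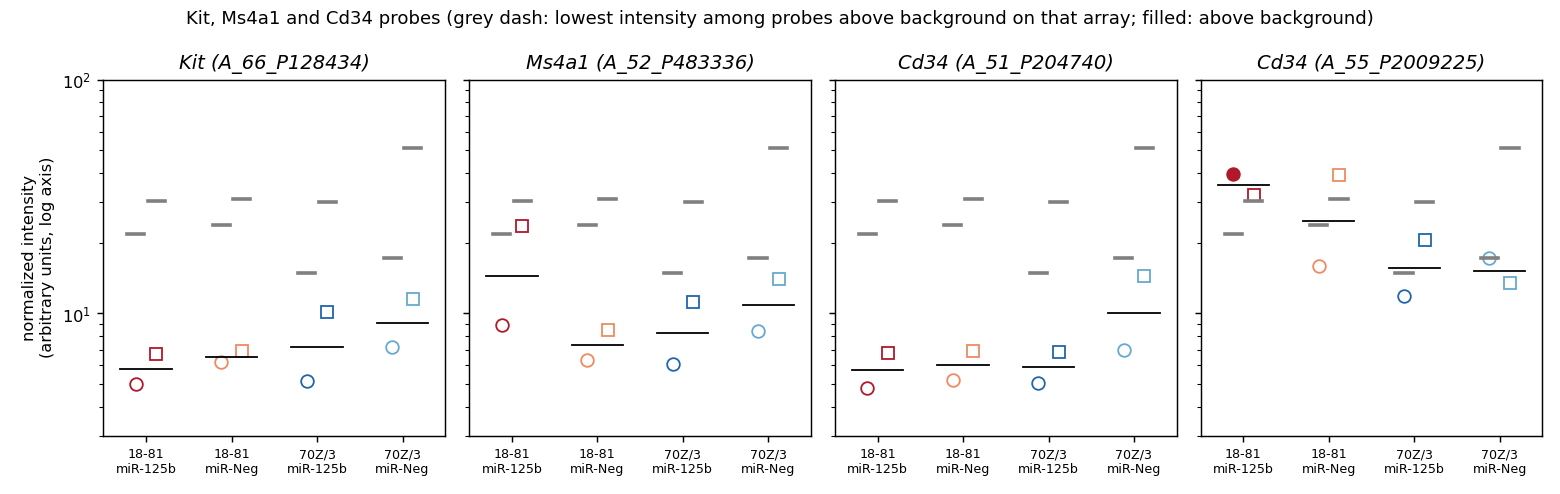
Normalized intensity (arbitrary units, log axis) of the probes of Kit, Ms4a1 and Cd34 by group, with circles for replicate 1, squares for replicate 2, black bars for the geometric mean and grey dashes for the lowest intensity among probes above background on the same array. A single symbol is filled, for a Cd34 probe on replicate 1 of 18-81 with miR-125b, the only value here that was above background.

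Cd22 encodes a sialic acid-binding lectin of B cells that dampens the antigen receptor. Its brighter probe (A_55_P2016004, chr7:31651249-31651308, minus strand, mm9) gave 465 and 438 in 18-81 with miR-125b, 483 and 479.5 in 18-81 with miR-Neg, 829 and 717 in 70Z/3 with miR-125b, and 1142 and 597 in 70Z/3 with miR-Neg. All 4 arrays of 18-81 lay within a narrow band below the 70Z/3 arrays, whose 2 miR-Neg replicates were the highest and the lowest of that line. Cd22 was 1.71-fold lower in 18-81 (log2 difference −0.78 ± 0.25, SE, 95% interval −1.34 to −0.21, adjusted p = 0.0446, limma), and neither duplex alone gave a call (−0.77, adjusted p = 0.171 with miR-125b, and −0.78, adjusted p = 0.166 with miR-Neg, limma). The call was close to the threshold: it was lost with the 75th percentile taken over probes above background on all arrays (adjusted p = 0.0843, limma), without a filter on intensity (adjusted p = 0.111, limma), and without any 1 of 7 arrays (adjusted p = 0.0809 to 0.143, limma), and it held without replicate 2 of 70Z/3 with miR-Neg. Without replicate 1 of 70Z/3 with miR-Neg the value was −0.54. A second Cd22 probe, nearer the 5′ end of the transcript (A_55_P2163795, chr7:31665113-31665172, minus strand, mm9), was above background on 1 array, replicate 1 of 70Z/3 with miR-125b, at 30.1.

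Cd72 encodes a C-type lectin of B cells that binds CD100 and recruits SHP-1. Its probe A_55_P1961270 (chr4:43460596-43460655, minus strand, mm9) gave 649 and 1503 in 18-81 with miR-125b, 657 and 1361 in 18-81 with miR-Neg, 11963 and 13925 in 70Z/3 with miR-125b, and 16399 and 18565 in 70Z/3 with miR-Neg. The lines were far apart on every array, and within 18-81 replicate 2 was above replicate 1 with either duplex. Cd72 was 15.5-fold lower in 18-81 (log2 difference −3.96 ± 0.34, SE, 95% interval −4.74 to −3.17, adjusted p = 4.36e-05, limma). The difference was −3.71 with miR-125b (adjusted p = 0.000755, limma) and −4.21 with miR-Neg (adjusted p = 0.000387, limma). These comparisons share no array, but they share the fitted estimate of spread and the same 2 experiments, so they are not independent.

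A second Cd72 probe, A_55_P2180415 (chr4:43460607-43460666, minus strand, mm9), overlaps the first along most of its length and so is no independent measurement. It gave 473 and 999.7 in 18-81 with miR-125b, 428 and 849.9 in 18-81 with miR-Neg, 8294 and 9745 in 70Z/3 with miR-125b, and 11449.8 and 13032 in 70Z/3 with miR-Neg. Its log2 difference of −4.02 ± 0.32 (SE, adjusted p = 2.69e-05 over probes, limma) was close to that of the first.

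Ms4a1 encodes CD20, an antigen of late pre-B and mature B cells. Its probe (A_52_P483336, chr19:11325367-11325426, minus strand, mm9) was above background on 0 of 8 arrays, with 8.90 and 23.6 in 18-81 with miR-125b, 6.30 and 8.50 in 18-81 with miR-Neg, 6.07 and 11.2 in 70Z/3 with miR-125b, and 8.43 and 14.01 in 70Z/3 with miR-Neg. No fold is given for it.

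The partners of CD22 and CD72 were mixed in direction. Of 12 listed genes, 11 were tested, with a median log2 difference of −0.06 against 0.02 over all genes. In 18-81, 2 were higher and 3 lower, against 15.6% and 16.2% of all genes. St6gal1, the enzyme that makes the sialylated ligand of CD22, ranged from 10642 to 14033 in 18-81 arrays and from 1845 to 3276 in 70Z/3 arrays (2.43 ± 0.22, SE, adjusted p = 6.13e-05, limma), and Ptpn6, described above, was the other higher gene. Lair1, an inhibitory collagen receptor gene, was also counted as lower. It entered the tests through 70Z/3 alone and was above background on 2 of 4 arrays of 18-81, so no p-value is given for it. With its other 2 values raised to the lowest signal measured on their arrays the log2 difference was −3.80, a bound on its size. Inpp5d, which encodes the lipid phosphatase SHIP-1, ranged from 10114 to 13679 in 18-81 and from 38046 to 46556 in 70Z/3 (−1.82 ± 0.20, SE, adjusted p = 0.000207, limma). The adaptor gene Blnk differed by −0.77 ± 0.20 (SE, adjusted p = 0.0222, limma).

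Of the receptors that were lower in 18-81, Cd72, Il7r and Cd22 have a start-site window in the RefSeq table, and these windows are shown because the genes differed in the same direction. Each holds 300 bases around the start, on the minus strand of GRCm38.p6: chr4:43454577-43454876 for Cd72, chr15:9529827-9530126 for Il7r and chr7:30878979-30879278 for Cd22. Capitals mark matches to the ETS-type motif AGGAAG (read as CTTCCT on the other strand) or to the EBF-type motif, TCCC and GGGA with any 2 bases between them.
Cd72: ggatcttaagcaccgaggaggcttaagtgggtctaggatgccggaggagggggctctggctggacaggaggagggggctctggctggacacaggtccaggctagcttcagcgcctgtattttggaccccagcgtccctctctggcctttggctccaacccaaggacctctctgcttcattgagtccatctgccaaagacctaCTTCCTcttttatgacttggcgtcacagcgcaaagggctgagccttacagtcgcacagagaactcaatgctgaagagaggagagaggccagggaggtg
Il7r: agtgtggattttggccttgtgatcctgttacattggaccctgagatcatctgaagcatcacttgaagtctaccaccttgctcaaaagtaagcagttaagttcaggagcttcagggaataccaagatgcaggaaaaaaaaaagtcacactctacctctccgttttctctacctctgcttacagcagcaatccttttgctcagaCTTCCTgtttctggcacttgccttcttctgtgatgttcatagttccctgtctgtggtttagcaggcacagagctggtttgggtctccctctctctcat
Cd22: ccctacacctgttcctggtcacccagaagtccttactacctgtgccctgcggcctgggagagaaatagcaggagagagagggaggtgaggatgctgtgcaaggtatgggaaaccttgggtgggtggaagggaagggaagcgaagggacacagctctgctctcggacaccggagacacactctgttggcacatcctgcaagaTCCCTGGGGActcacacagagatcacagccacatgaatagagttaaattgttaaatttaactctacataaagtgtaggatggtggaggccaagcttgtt
In Cd72 and in Il7r the AGGAAG match lay 48 bases before the start, and in Cd22 the match TCCCTGGGGA lay 49 bases before it. AGGAAG was not limited to the lower genes. It also matched in the windows, not shown, of Kit (222 or 226 bases before the start) and Cd34 (142), which did not pass the intensity filter. The Flt3 window held neither AGGAAG nor the EBF-type motif. On both strands, AGGAAG occurred in 35.4% of 32851 windows of the same length, the EBF-type motif in 0.904%, the E-box CANNTG in 72.3% and the octamer ATGCAAAT in 1.74%. E-boxes occurred in all 3 windows without overlapping the capitals, and the octamer in none of them. A match of letters describes the window and shows no binding.

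The 15 transcription factor genes of the early B lineage were all tested, with a median log2 difference of −0.20 against 0.02 over all genes. In 18-81, 4 were higher and 4 lower, against 15.6% and 16.2% of all genes. Among factors of the motif types marked in capitals above, Ebf1 (−0.39, adjusted p = 0.238, limma) and Spi1, the ETS factor PU.1 (−0.25, adjusted p = 0.760, limma), were not called. The higher genes were Irf8, at 87581 to 104487 in 18-81 and 16075 to 23558 in 70Z/3 (2.30 ± 0.18, SE, adjusted p = 2.98e-05, limma), the inhibitor of E proteins Id3 (3.12 ± 0.37, SE, adjusted p = 0.000324, limma), Foxo1 (0.76, adjusted p = 0.0147, limma) and Pax5 (0.79, adjusted p = 0.0439, limma). The lower ones were Myb (−1.67 ± 0.29, SE, adjusted p = 0.00295, limma), Lef1 (−1.56 ± 0.30, SE, adjusted p = 0.00448, limma), Runx1 (−1.21, adjusted p = 0.0107, limma) and Irf4 (−0.72, adjusted p = 0.0416, limma).

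Cd24a encodes the heat-stable antigen, a glycosylated surface protein that is high on pro-B and pre-B cells. Its probe (A_52_P244193, chr10:43303706-43303765, plus strand, mm9) gave 69365 and 43457 in 18-81 with miR-125b, 68262 and 48033 in 18-81 with miR-Neg, 14160 and 17025 in 70Z/3 with miR-125b, and 20389 and 40001 in 70Z/3 with miR-Neg. Every 18-81 array was above every 70Z/3 array, and replicate 2 of 70Z/3 with miR-Neg, the dimmest array, came closest to the 18-81 values. Cd24a was 2.66-fold higher in 18-81 (log2 difference 1.41 ± 0.29, SE, 95% interval 0.73 to 2.09, adjusted p = 0.00709, limma). It passed on the miR-125b arrays (1.82, adjusted p = 0.0155, limma) and not on the miR-Neg arrays (1.00, adjusted p = 0.136, limma), where it passed with the replicate number as a block within each line (adjusted p = 0.0265, limma). The miR-125b call was lost without replicate 1 of 18-81 (1.49, adjusted p = 0.0803, limma), without replicate 1 of 70Z/3 (1.69, adjusted p = 0.103, limma) and without replicate 2 of 70Z/3 (1.96, adjusted p = 0.0613, limma).

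Cd93 encodes the receptor recognised by the AA4.1 antibody, used to define early B cells in mouse marrow. Its probe (A_51_P238722, chr2:148262436-148262495, minus strand, mm9) gave 13786 and 11599 in 18-81 with miR-125b, 13110 and 11251 in 18-81 with miR-Neg, 38336 and 57055 in 70Z/3 with miR-125b, and 56434 and 44443 in 70Z/3 with miR-Neg. The 18-81 arrays lay close together, well below all 70Z/3 arrays. Cd93 was 3.91-fold lower in 18-81 (log2 difference −1.97 ± 0.22, SE, 95% interval −2.48 to −1.46, adjusted p = 0.000225, limma), with −1.89 on the miR-125b arrays (adjusted p = 0.00297, limma) and −2.04 on the miR-Neg arrays (adjusted p = 0.00202, limma).

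Counted by duplex, 1 receptor was called higher and 2 lower in 18-81 on the miR-125b arrays, where 21.2% of all genes were called (9.70% higher, 11.5% lower), and 0 higher and 3 lower on the miR-Neg arrays, where 21.6% were called (9.83% higher, 11.7% lower). The median of all genes differed by 0.12 between the lines on the miR-125b arrays and by −0.07 on the miR-Neg arrays. Relative to these medians Cd72 differed by −3.83 and −4.13, and Cd93 by −2.01 and −1.97.

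**Figure D4:**
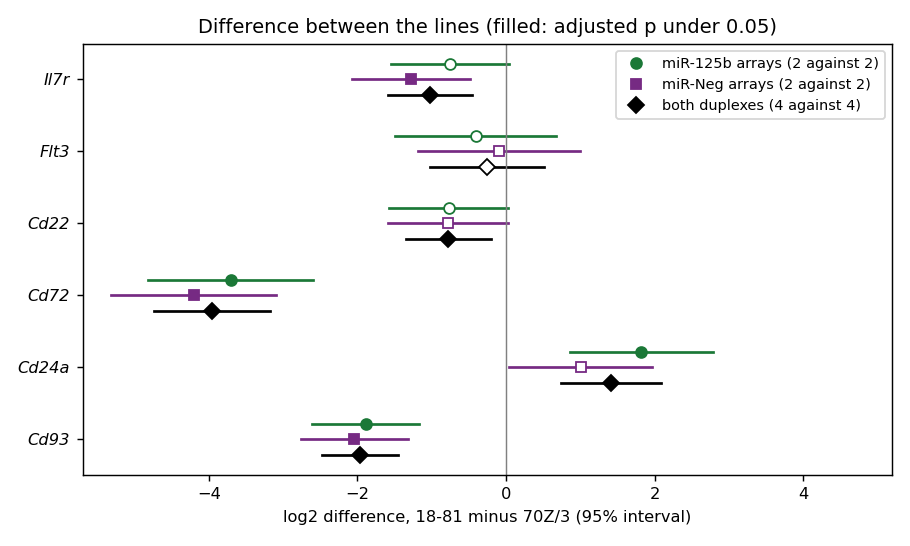
Log2 difference between the lines (18-81 minus 70Z/3) for the 6 measured receptors, with 95% intervals from limma, on the miR-125b arrays (circles), on the miR-Neg arrays (squares) and over both duplexes (diamonds), filled where the adjusted p was under 0.05. Cd72 and Cd93 are called lower in all 3 comparisons and Flt3 in none.

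Other surface molecules of the B lineage also separated the lines in both directions. Of 32 listed, 28 were tested (median log2 difference 0.47, against 0.02 over all genes). In 18-81, 13 were higher and 9 lower, against 15.6% and 16.2% of all genes. Cd2, an adhesion molecule gene, ranged from 614 to 676 in 18-81 and was not above background in 70Z/3, at least 25.7-fold higher. Bst1, which encodes the stromal antigen BP-3 (CD157), ranged from 10168 to 19351 in 18-81 and was above background on 1 of 4 arrays of 70Z/3. With the 3 values not above background raised to the lowest signal measured on their arrays, the log2 difference was 8.63, a lower bound. H2-Aa, a class II histocompatibility gene, ranged from 2680 to 4821 in 18-81 and was also above background on 1 of 4 arrays of 70Z/3. A lower bound of 6.91 for its log2 difference was found in the same way. Cd2, Bst1 and H2-Aa entered the tests through 18-81 alone, so no p-value is given for them.

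Enpep, which encodes the pre-B antigen BP-1, ranged from 9157 to 14124 in 18-81 and from 214 to 446 in 70Z/3 (5.28 ± 0.23, SE, adjusted p = 7.53e-07, limma). The lower genes with the smallest p-values encode adhesion molecules and a sialomucin. Cd44, the hyaluronan receptor gene, ranged from 65.8 to 82.4 in 18-81 and from 1920.5 to 3984 in 70Z/3 (−5.14 ± 0.28, SE, adjusted p = 2.86e-06, limma). Itga4, an integrin subunit gene, ranged from 1296 to 1566 in 18-81 and from 9356 to 11938 in 70Z/3 (−3.00 ± 0.19, SE, adjusted p = 7.83e-06, limma). Spn, which encodes CD43, ranged from 3557 to 4763 in 18-81 and from 14867 to 28724 in 70Z/3 (−2.24 ± 0.21, SE, adjusted p = 8.18e-05, limma).

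The miR-125b duplex was followed by no called change in any of the 6 receptors in either line. In limma, 0 of 18792 genes passed at an adjusted p of 0.05 in either line (0% called), with 230 at an unadjusted p under 0.05 in 18-81 and 1104 in 70Z/3. The smallest adjusted p among the receptors was 0.773, for Cd24a in 70Z/3. No gene of the companion lists was called in these comparisons. With the replicate number as a block, which takes up the pairing of the samples, 0 genes passed in either line. The genes at an unadjusted p under 0.05 then numbered 531 in 18-81 and 3922 in 70Z/3 (limma). With this block the adjusted p in 70Z/3 was 0.273 for Cd24a and 0.431 for Cd72, and with the block within each line 0.214 and 0.236 (limma).

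In 70Z/3 the median of all genes differed by −0.13 between the duplexes, and changes are read against it. Cd24a gave 14160 and 17025 with miR-125b, against 20389 and 40001 with miR-Neg. Both replicate pairs were lower with miR-125b, with log2 differences of −0.53 and −1.23. The fit gave −0.88 ± 0.41 (SE, 95% interval −1.84 to 0.08, adjusted p = 0.773, limma), or −0.75 relative to the median of all genes. It gave −0.69 with the 75th percentile taken over probes above background on all arrays, −0.60 after quantile normalization and −0.58 from the deposited series table. The larger pair difference came from the dimmest array, and without replicate 2 of 70Z/3 with miR-Neg the value was −0.39, while without replicate 1 of that group it was −1.37. Cd72 had log2 differences of −0.46 and −0.41 in the replicate pairs (fit −0.43 ± 0.48, SE, adjusted p = 0.798, limma), or −0.30 relative to that median, and the fit gave −0.22 after quantile normalization and −0.20 from the deposited series table. The groups did not overlap for Cd24a and Cd72, 2 of the 6 receptors, against 37.6% of all genes. The myeloid genes Lyz2 (29.2 and 77.0 with miR-125b, 7.51 and 12.1 with miR-Neg) and Mpo (41.1 and 43.8 with miR-125b, 14.7 and 30.8 with miR-Neg) were above background in 70Z/3 with miR-125b only. On replicate 2 of 70Z/3 with miR-Neg the lowest signal above background was 51.2, more than either Mpo value with miR-125b. Csf1r went the other way (403 and 636 with miR-125b, 1078 and 1684 with miR-Neg). Elane (746 and 790, against 696 and 1112) and Itgam (7063 and 5312, against 6219 and 2490) overlapped between the duplexes, and Cd14 was not above background. The part of the myeloid genes in these differences was not tested.

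For the other receptors the replicate pairs of 70Z/3 had opposite signs. Il7r differed by −0.85 and 0.16 (fit −0.35 ± 0.34, SE, 95% interval −1.14 to 0.45). Flt3 differed by −0.69 and 1.30 (fit 0.31, 95% interval −0.78 to 1.39), where the second pair holds the value that was not above background. Cd22 differed by −0.46 and 0.26, and Cd93 by −0.56 and 0.36. Relative to the median of all genes the fits were −0.21 for Il7r, 0.44 for Flt3 and 0.03 for both Cd22 and Cd93.

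In 18-81, all 6 fitted differences between miR-125b and miR-Neg lay between −0.09 and 0.18 on the log2 scale, with adjusted p-values of 1.00 in limma. Leaving out 1 array moved Cd72 to between −0.54 (without replicate 2 of miR-125b) and 0.67 (without replicate 1 of miR-125b). For Cd24a the range was −0.40 to 0.28. Such fits break the pairing, and both genes differed between the replicates with either duplex. The pair differences were −0.02 and 0.14 for Cd72, and 0.02 and −0.14 for Cd24a. Il7r had the largest, 0.18 ± 0.34 (SE, 95% interval −0.62 to 0.98), from pairs of 0.39 and −0.03. Cd22 had log2 differences of −0.06 and −0.13 in the pairs and was the 1 receptor of 6 whose groups did not overlap, against 12.9% of all genes. The intervals of the fit do not take up the pairing. Those of Cd72 (−1.05 to 1.18) and Flt3 (−1.09 to 1.08) leave room for a difference of 1 in log2 either way. That of Cd24a (−1.02 to 0.90) leaves room for one of −1. Differences of that size may have gone undetected in this fit with 2 arrays a group.

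The effect of the duplex was compared between the lines directly. The difference of effects, 18-81 minus 70Z/3, was 0.82 ± 0.59 for Cd24a (SE, 95% interval −0.54 to 2.18), 0.53 ± 0.49 for Il7r and 0.50 ± 0.68 for Cd72, and none of the 6 passed (smallest adjusted p = 0.940, limma). Over all genes 0 passed, with 606 at an unadjusted p under 0.05. Averaged over both lines the differences lay between −0.47 for Cd24a and 0.15 for Flt3, again with 0 genes called and 508 at an unadjusted p under 0.05 in limma. With the replicate number as a block, 606 became 2424 and 508 became 1390, and 0 genes were called in either comparison (limma).

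**Figure D5:**
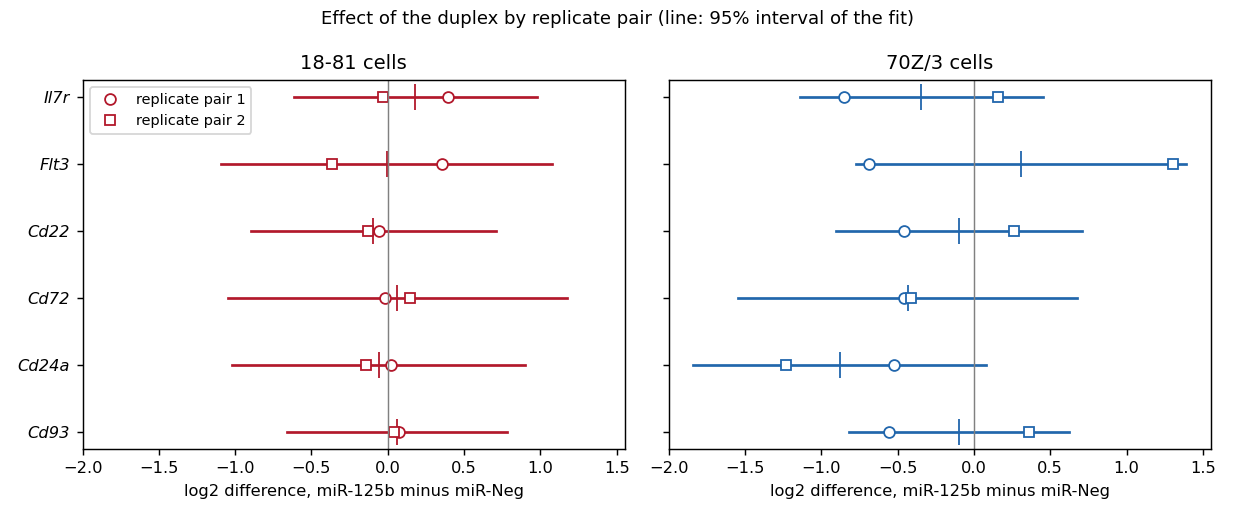
Log2 difference between miR-125b and miR-Neg for the 6 measured receptors in 18-81 and 70Z/3 cells, with a circle for the first replicate pair, a square for the second, a tick for the fit and a line for its 95% interval from limma. Every interval includes 0, and the pairs lie further apart in 70Z/3 than in 18-81 for Il7r, Flt3, Cd22, Cd24a and Cd93.

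The genes whose profile over the 8 arrays was most like each receptor are given as a description. They were ranked among 13692 tested genes by Pearson's r of log2 values, which share arrays and slide rows and mostly follow the split between the lines. Cd72 was most like Selenop (r = 0.999), Tulp4 and Ttll11, and Cd93 most like 2810039B14Rik (r = 0.994), 4921531C22Rik and St3gal5. Cd24a was most like Snx24 (r = 0.988), Adam18 and Naa16, and Cd22 most like Atp6v1e2 (r = 0.984), Dgka and Mapk6. Il7r was most like Zbed6 (r = 0.972), Nsl1 and Nfatc1, and Flt3, whose lines overlap, most like Zcchc7 (r = 0.941) and 4632427E13Rik.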

How the data were processed

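Total RNA (0.2 µg, integrity number 9) of 8 cultures was labelled with Cy3 and hybridised to 8 one-colour Agilent arrays on 1 slide, per the labels. Per the file headers, the authors read out intensity with Agilent Feature Extraction 10.7.3.1, which subtracted background and detrended it, with probe positions on mm9. The deposited series table, an alternative, has linear intensity normalized between arrays (method not given in the sources used here). All columns have 1 common maximum (650812.1375) and medians of 14.64 to 14.71 and are not centred by gene.

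Control and outlier spots were left out, spots of a probe were averaged, and log2 intensity minus the array's 75th percentile was used. A gene was tested if some group had a probe of it well above background on both arrays, and its brightest such probe stood for it. limma 3.58.1 in R 4.3.3 fitted 4 group means to 8 arrays (prior degrees of freedom 3.83, prior SD 0.355), two-sided, with Benjamini-Hochberg adjustment over 18792 genes at 0.05. The script was tested on simulated data. Alternatives changed the normalization, background correction, filter, outlier spots, probes, variance model, weights and replicate block, or left out 1 array. Raising unmeasured values of Bst1, H2-Aa, Lair1 and Crlf2 to the lowest signal above background was added after seeing the data.

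Replicates of the same number deviated together (r of 0.37 to 0.65 over 6 pairs of groups) and come from 2 independent experiments, so the numbers pair the samples, and slide rows follow them. Slide columns coincide with the groups, and their effects cannot be told apart. Named genes were all 9 receptors, up to 4 genes per direction with the smallest adjusted p of each companion list, and the 3 genes most like each receptor, with Il2rg, Stat5a, Stat5b, Ebf1, Spi1 and marker genes named after their values were seen. A few genes that meet this rule or belong to the marker lists are not reported here, though the counts cover them. The receptors and the 11 lists were chosen with earlier results of these data known. Names and sequences are from RefSeq for GRCm38.p6. Exon and untranslated region positions of the probes were not assessed here.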

Additional observations from a re-analysis of the deposited data

Results flagged for a closer look

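The second Cd72 probe (A_55_P2180415) had log2 differences between miR-125b and miR-Neg of opposite sign in the lines: 0.14 and 0.23 in the replicate pairs of 18-81, and −0.47 and −0.42 in those of 70Z/3. The difference of effects was 0.63 ± 0.64 (SE) and did not pass its test (adjusted p = 0.944 over 25315 probes, limma). The overlapping probe that stood for Cd72 gave −0.02 and 0.14 in 18-81, so its pairs there did not share a sign.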

How the results depend on the processing

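Over 833 values of the receptors under alternatives, 811 kept their side of the threshold, 20 lost the call and 2 gained it. Of the values, 58 changed sign, all of differences that were not called, and 0 of called ones. Cd72 (−4.26 to −3.65), Cd93 (−2.11 to −1.82) and Cd24a (1.17 to 1.66) were called between the lines, over both duplexes, under all 21 settings, Il7r under 19 and Cd22 under 12. Cd22 with miR-Neg was gained without replicate 2 of 70Z/3 with miR-Neg (−1.25, adjusted p = 0.0338, limma). Flt3 gave no value under the filter on all 8 arrays.

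The number of genes called between the lines, 5965, became 3513 with probes above background on all 8 arrays and 9032 with the replicate number as a block, and 4565 to 5710 without 1 array. With miR-125b, 3975 became 1722 under that filter, 6764 with the block, 6693 with the block within each line, and 2684 to 4173 without 1 array. With miR-Neg, 4056 became 1868, 6829, 6739, and 2765 to 3997. The block changed the call of no other receptor than Cd24a with miR-Neg, given above. For miR-125b in 70Z/3, 0 genes became 1 with normexp correction, 1 with the block within each line and 0 to 2 without 1 array, 2 without replicate 2 of miR-Neg. In 18-81, 0 became 0 to 9 without 1 array: 5 without replicate 1 and 9 without replicate 2 of miR-125b, and 1 without replicate 2 of miR-Neg. The mean of both lines and the difference of effects gave 0 to 5 without 1 array. Fewer arrays or genes enter by construction, and otherwise the cause was not tested. Kit, Ms4a1, Cd34 and Flt3 are limited by signal near background.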
